A study of Arabidopsis thaliana with 15 samples.

Results

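Metallothioneins are small, cysteine-rich proteins that bind copper and zinc. Plants carry several types, told apart by how the cysteines are arranged, and in Arabidopsis type 1 (*MT1A*, *MT1B*, *MT1C*) and *MT2B* are best known from vascular tissue and senescing leaves, *MT2A* and *MT3* from the mesophyll of young leaves and from root tips, and the type 4 genes from seeds. In ageing leaves they are linked to holding and remobilizing the metal ions that are set free as proteins break down.

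The 7 metallothionein genes described here were *MT1A* (AT1G07600), *MT1B* (AT5G56795), *MT1C* (AT1G07610), *MT2A* (AT3G09390), *MT2B* (AT5G02380), *MT3* (AT3G15353) and *MT4A* (AT2G42000). They were taken as a family, and the type 1 genes were chosen with a large decrease in the KO plants already known, so the KO values are given as a description without a test. A probe matched 6 of the 7 genes, with 14 probes among the 43603 on the array (25410 loci had a matched probe). *MT1A*, *MT1C* and *MT4A* had 1 probe each, *MT2A* had 2, *MT3* had 4 and *MT2B* had 5. No probe matched *MT1B*, so it has no value here. *MT1A* and *MT1C* lie close together on chromosome 1, *MT2A* and *MT3* on chromosome 3, *MT2B* and *MT1B* on chromosome 5 and *MT4A* on chromosome 2.

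The study asked what the transcription factor ANAC046 does in leaf senescence, and measured total RNA on 15 one-color arrays, 3 in each of 5 groups. All plants were of the Col-0 background. At 50 days after sowing (DAS), leaves of wild-type (WT) plants were compared with leaves of plants that overexpress *ANAC046* from the 35S promoter (35S:ANAC046:NOS; OX), grown on soil. At 5 days after the start of darkness (DAD), WT plants were compared with the *anac046* transposon-insertion mutant (KO) and with plants that carry 35S:ANAC046-SRDX:NOS (SRDX), in which a repression domain is fused to the factor. By the Methods, darkness began several weeks after sowing, before the plants reached 50 DAS. The Methods call the dark-treated tissue leaves, whereas the labels call it seedlings on agar. The 35S promoter acts in most cell types. By the Methods, OX and SRDX were each represented by 3 independent transgenic lines, whereas all KO plants were of 1 insertion line. The Methods do not state which array held which line, and each OX or SRDX array is taken here as 1 line. Signals are given as log2 of the quantile-normalized intensity relative to the array median, and a difference of 1 is a doubling.

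*ANAC046* was checked first. Its log2 signal was 0.42 to 0.77 in WT at 50 DAS and 2.64, 8.95 and 9.01 in OX replicates 1, 2 and 3. OX replicate 1 thus carried far less *ANAC046* mRNA than the other OX lines. At 5 DAD the signal was 5.11 to 5.35 in WT and 6.29 to 6.42 in SRDX. In KO it was at background on all arrays. With KO values raised to the lowest signal called well above background on each array, it was 272-fold lower than in WT. Between 62.2% and 80.9% of spots per array were well above background, and no spot of a metallothionein probe was saturated. All 8 leaf markers were well above background on every array, while 11 of 15 root markers and 9 of 10 seed markers were not on any WT array at 50 DAS. The 3 arrays of WT at 50 DAS, OX, WT at 5 DAD and KO each shared a slide, and SRDX replicate 3 was on the slide of the KO arrays. No slide held both a WT array and an array it was compared with, so an effect of the slide cannot be told apart from the group in any of the comparisons.

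**Figure D1:**
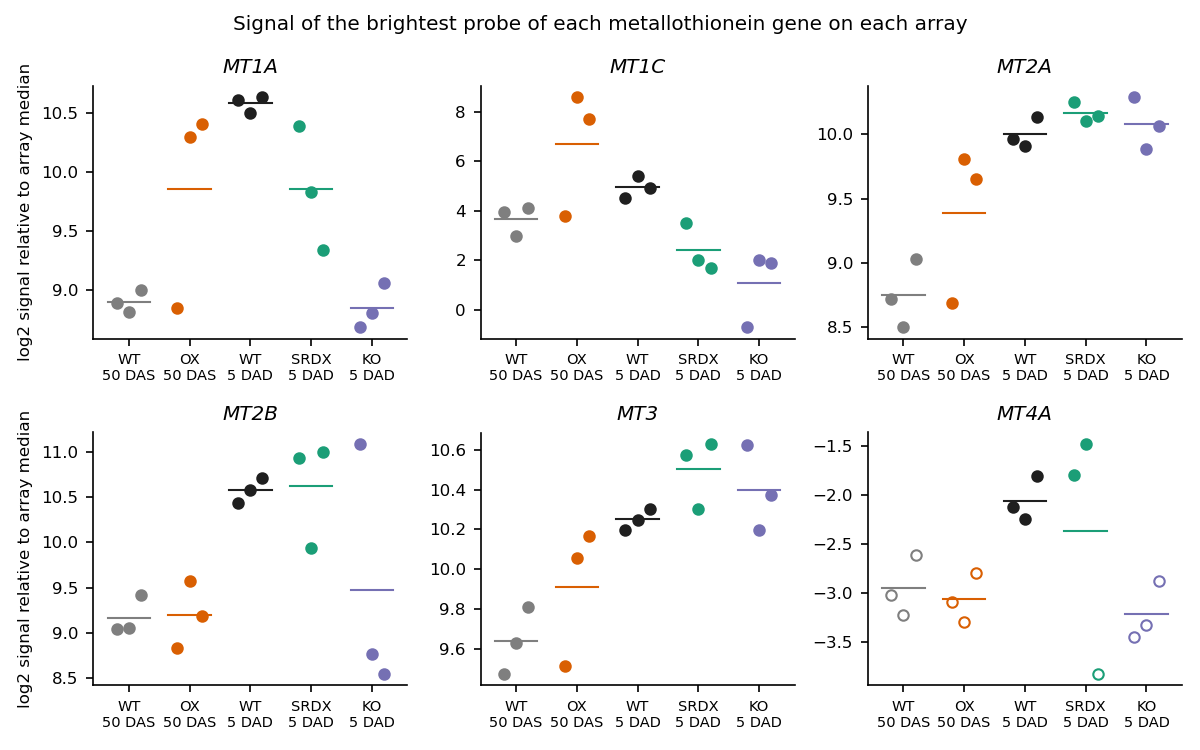
Log2 signal relative to the array median (vertical axis) of the brightest probe of each gene, by group; points are arrays, horizontal lines are group means of 3 arrays, and open points were not well above background. *MT1A* and *MT1C* were lower on all KO arrays than on all WT arrays at 5 DAD, *MT2B* split the KO arrays from 11.08 to 8.55, and each vertical axis has its own range and does not start at 0.

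*MT1A* and *MT1C* were the genes in which dark-treated KO plants stood furthest below WT. The *MT1A* signal was 10.61, 10.50 and 10.63 in WT at 5 DAD and 8.69, 8.81 and 9.06 in KO. The groups did not overlap, and the difference was -1.73 (SE 0.25), or 3.32-fold lower in KO. *MT1C* gave 4.51, 5.40 and 4.92 in WT and -0.71, 2.0 and 1.89 in KO. All KO arrays again lay below all WT arrays, with a difference of -3.88 (SE 0.74), or 14.8-fold. On these arrays 10 of 15 root markers were well above background throughout WT and 4 throughout KO. The 10 root markers tested were those detected throughout WT, a filter that favors lower calls in KO. Of them, 4 passed as lower in KO (*COBL9*, *PRP3*, *PER10* and *NRT2.1*) and 1 as higher. The summed level of the root markers was 3.27 to 5.04 in KO and 4.27 to 5.92 in WT. Their part in the type 1 values was not tested. KO replicate 1 was the lowest *MT1C* array, and without it the difference was -3.00. It was -3.01 in the values normalized by the authors. In whole leaves, a smaller number of expressing cells and less RNA per cell cannot be told apart.

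*MT4A*, the seed-type gene, was measured only near the limit of the array. In WT at 5 DAD it was well above background on all 3 arrays, at -2.13, -2.25 and -1.81. In KO it was -3.45, -3.32 and -2.88 and not well above background on any array. With KO values raised to the lowest signal called well above background on each array, it was 1.74-fold lower. The log2 difference ran from -0.20 with normexp background correction to -1.99 with 75th percentile scaling. On the same arrays 5 of 10 seed markers were well above background on every WT array and none on every KO array. The summed level of the seed markers was 1.61 to 1.73 in WT and 0.887 to 1.02 in KO, in units of the array median, and their part in the *MT4A* value was not tested.

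*MT2B* divided the KO arrays. Its brightest probe gave 10.43, 10.58 and 10.71 in WT and 11.08, 8.77 and 8.55 in KO replicates 1, 2 and 3. Replicate 1 was above every WT array and the other two were below every WT array, a range of 5.78-fold within the group. Of 33106 probes, 1.52% varied as much among the KO arrays. The mean difference of -1.11 (SE 0.61) became -1.91 without KO replicate 1 and -0.65 without KO replicate 3. All 5 *MT2B* probes showed the same split, with mean differences from -1.17 to -0.98. The summed level of 6 phloem markers was 316, 152 and 158 in KO replicates 1, 2 and 3 and 297 to 322 in WT. Brighter markers weigh more in this sum, so it does not stand for the set. In WT at 50 DAS *PP2-A1* was the brightest of them (log2 7.88), followed by *SUC2* (5.65). The phloem markers did not move one way at 5 DAD. *NAKR1* passed as lower in KO (-1.59, limma adjusted p = 0.0945), 2 passed as higher, 4 had all KO arrays above all WT arrays and the median difference was 0.43. Their part in the *MT2B* values was not tested.

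The brightest probes of *MT2A* and *MT3* had KO means slightly above those of WT. *MT2A* gave 9.96, 9.91 and 10.13 in WT and 10.28, 9.88 and 10.06 in KO, a difference of 0.08 (SE 0.16). *MT3* gave 10.20, 10.25 and 10.31 in WT and 10.62, 10.20 and 10.37 in KO, a difference of 0.15 (SE 0.17). Both pairs of groups overlapped. With 75th percentile scaling the differences were 0.30 (SE 0.16) for *MT2A* and 0.42 (SE 0.15) for *MT3*. Over the family, 3 of 14 probes had all KO arrays below all WT arrays, beside 22% of all probes tested, and 0 of 14 had all above, beside 25.1%. Since the type 1 genes were chosen on this contrast, nothing is read from these shares. The median difference over the 14 probes was -1.04, beside 0.00 over all probes, but it fell between *MT2B* probes, which are 5 of the 14, and does not stand for *MT2A* or *MT3*. On the same arrays, 7 of 8 leaf markers were higher in KO than in WT, with a summed level of 1408 to 1626 against 724 to 767, and the part of this shift in the metallothionein values was not tested.

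The SRDX plants showed lower type 1 signals too, against the same WT arrays as KO. *MT1A* was 10.39, 9.83 and 9.34 in SRDX, all below the lowest WT array at 10.50, with a difference of -0.73 (SE 0.25). SRDX replicate 1 lay only 0.19 below the WT mean and replicate 3 lay 1.24 below it. *MT1C* was 3.52, 2.02 and 1.67 in SRDX, again below all WT arrays, with a difference of -2.54 (SE 0.74), or 5.83-fold. In both genes replicate 1 was the closest to WT. On the SRDX arrays the summed level of the root markers was 2.60 to 3.16, below all WT arrays, and that of the leaf markers was 1068 to 1796, above all of them, and their part in these values was not tested. These values are a description as well, because the type 1 genes were picked on the WT arrays that both comparisons share.

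*MT2A*, *MT2B* and *MT3* did not differ detectably in SRDX by their brightest probes. *MT2A* was 10.25, 10.10 and 10.14, a difference from WT of 0.16 (adjusted p = 0.535 by limma). *MT2B* was 10.92, 9.94 and 10.99, with replicate 2 low, and differed by 0.05 (limma adjusted p = 0.969). *MT3* was 10.58, 10.31 and 10.63, a difference of 0.25 (limma adjusted p = 0.364). *MT4A* was -1.80, -1.48 and -3.82, with replicate 3 not well above background and lowest also in the summed seed markers (0.853 beside 1.66 and 1.85). Its difference was -0.31. It entered the fit only through WT, where its mean was highest, so no test is given. By limma 0 of the 11 tested probes well above background on all arrays of both groups passed the limit of 0.15 in either direction. Of these, 0 were under an unadjusted p of 0.05. Of all 33111 probes tested, 12.3% passed it as higher and 10% as lower in SRDX. *MT3* probe 3 was the only one of the 14 with all SRDX arrays above all WT arrays (17.7% of all probes were so placed), by 0.53 (limma adjusted p = 0.226). *MT1A* and *MT1C* were the probes with all arrays below, beside 16.1% of all probes. Without SRDX replicate 2, *MT3* probe 3 passed the limit at 0.73 (limma adjusted p = 0.0816), as did the dimmer *MT2A* probe at 0.77 (limma adjusted p = 0.0763) and *MT3* probe 4 at 0.75 (limma adjusted p = 0.133), beside 20.6% of all probes as higher and 19.6% as lower in that fit.

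In OX leaves at 50 DAS the type 1 genes were high in the lines with much *ANAC046* mRNA. They were at the WT level in OX replicate 1, which had the least, though still more than WT. *MT1C* was 3.94, 2.96 and 4.10 in WT and 3.79, 8.58 and 7.71 in OX replicates 1, 2 and 3. The lines were thus 27.6-fold apart, a range that 0.467% of all probes reached within OX. *MT1A* was 8.89, 8.81 and 9.0 in WT and 8.85, 10.30 and 10.41 in OX. Replicate 1 lay among the WT arrays and replicates 2 and 3 lay 1.40 and 1.51 above the WT mean. The *MT1A* range within OX was 2.95-fold, which 14.8% of all probes reached. The summed level of the seed markers was 1.09, 8.0 and 2.45 in OX replicates 1, 2 and 3 and 0.714 to 1.11 in WT, and that of the root markers was 2.64, 6.56 and 2.39 against 2.05 to 2.33. Replicate 2 was thus highest in both marker sums, in which 0 of 10 seed markers and 2 of 15 root markers were well above background on every OX array, and their part in the type 1 values was not tested. By group means, *EM6* was the brightest seed marker in OX (0.59, beside -1.99 in WT). *CRC*, *SESA2* and *SESA3* were lower in OX than in WT and the other seed markers higher, so the seed sum does not stand for the set. With all 3 lines, *MT1C* differed from WT by 3.03 (SE 1.23, limma adjusted p = 0.217) and *MT1A* by 0.95 (SE 0.43, limma adjusted p = 0.233), and neither passed the limit.

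*MT2A* was likewise higher in OX replicates 2 and 3 than in replicate 1, with a smaller step. It was 8.72, 8.50 and 9.03 in WT and 8.69, 9.81 and 9.65 in OX, a difference of 0.63 (SE 0.33, limma adjusted p = 0.272). *MT3* was 9.48, 9.63 and 9.81 in WT and 9.51, 10.06 and 10.17 in OX, a difference of 0.27 (limma adjusted p = 0.425). *MT2B* was 9.04, 9.05 and 9.42 in WT and 8.83, 9.57 and 9.19 in OX, a difference of 0.03 (limma adjusted p = 0.943). Replicate 1 lay below all WT arrays, replicate 2 above all of them and replicate 3 among them. *MT4A* was at background on all arrays at 50 DAS and was not tested.

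By limma 0 of the 13 probes tested passed in either direction, beside 0.0759% of all 27655 probes as higher and 0.0108% as lower. At an unadjusted p under 0.05 there was 1 of 13, *MT1C*, and 6364 of all probes. All 14 probes overlapped between OX and WT, whereas 12.3% of all probes had every OX array above every WT array and 21.4% had every one below. The result depended on OX replicate 1. Without it, *MT1C* (4.48, limma adjusted p = 0.00325), *MT1A* (1.45, limma adjusted p = 0.00237), *MT2A* (0.98, limma adjusted p = 0.0166) and *MT3* (0.47, limma adjusted p = 0.0568) passed as higher, 4 of the 5 genes tested, beside 24.2% of all probes as higher and 32.6% as lower. In 1 fit of all 15 arrays, which shares the spread of the 5 groups, *MT1A*, *MT1C* and *MT2A* passed as higher (limma adjusted p = 0.0946, 0.0779 and 0.112), beside 11.2% of all probes as higher and 16.6% as lower.

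Dark-treated WT plants had higher signals than WT leaves at 50 DAS for the metallothioneins measured in both. *MT1A* and *MT1C* were chosen on a decrease in KO against the same WT arrays at 5 DAD. Their values here are thus a description without a test. Of the other genes well above background on all 6 arrays, *MT2A*, *MT2B* and *MT3* all passed the limit as higher by their brightest probe. Among their probes only *MT3* probe 4 did not pass. Many other genes changed too: 46.7% of all 33802 probes passed as higher and 40.2% as lower, 44.4% were above on every array and 39% below, and among the 26183 probes well above background on all 6 arrays 42.1% passed as higher and 46.3% as lower. *MT1A* differed by 1.68 (SE 0.09), *MT2B* by 1.41 (SE 0.14, limma adjusted p = 0.000114) and *MT2A* by 1.25 (SE 0.15, limma adjusted p = 0.000320). *MT1C* differed by 1.27 (SE 0.36), and its highest WT array at 50 DAS (4.10) was just under the lowest at 5 DAD (4.51). *MT4A* was at background at 50 DAS. With those values raised to the lowest signal called well above background on each array, it was 1.39-fold higher at 5 DAD. It could be compared only through the group in which it is high, so no test is given. *MT3* differed by 0.61 (SE 0.11, limma adjusted p = 0.00194) with quantile normalization and by -0.33 (limma adjusted p = 0.0339) when arrays were scaled to their 75th percentile, so its direction was not settled. Under that scaling *MT1A* differed by 0.90, *MT2A* by 0.60 and *MT2B* by 0.53. In 1 fit of all 15 arrays the SE of the *MT1C* difference was 1.05. The *MT4A* difference of 0.89 was 0.12 with normexp background correction. The median difference was 1.22 over the 13 probes measured in both groups and 0.15 over all probes. Tissue markers moved as well. All 8 leaf markers passed as lower at 5 DAD (summed level 724 to 767 against 9006 to 9469). Of 10 root markers tested, 8 passed as higher (4.27 to 5.92 against 2.05 to 2.33), with 10 of 15 well above background on every array at 5 DAD and 2 of 15 at 50 DAS. The 10 tested were those detected throughout WT at 5 DAD, which favors higher calls there, so nothing is read from this count. The seed markers summed to 1.61 to 1.73 against 0.714 to 1.11. Their part in the metallothionein values was not tested. Age, tissue as labelled (seedling or leaf), light, growth on soil or agar, slide and scan day all differ between these groups and cannot be told apart.

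The order of the groups set the genes apart. *MT1A* was highest in WT at 5 DAD, with mean signals of 10.58 there, 9.85 in SRDX and in OX, 8.90 in WT at 50 DAS and 8.85 in KO. WT at 5 DAD stood clear of SRDX, and each later neighbour in the order overlapped the one before. *MT1C* was highest in OX, at 6.69 on average, followed by 4.94 in WT at 5 DAD, 3.67 in WT at 50 DAS, 2.40 in SRDX and 1.06 in KO. Among these neighbours only the WT groups did not overlap. By their brightest probes, *MT2A* and *MT3* had the same order, with SRDX, KO and WT at 5 DAD on top and overlapping. A gap lay only between WT at 5 DAD and OX. By *MT3* probe 2, KO was highest at 10.20, followed by WT at 5 DAD at 10.15 and SRDX at 10.09. In *MT2B* and *MT4A* every pair of neighbours overlapped.

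**Figure D2:**
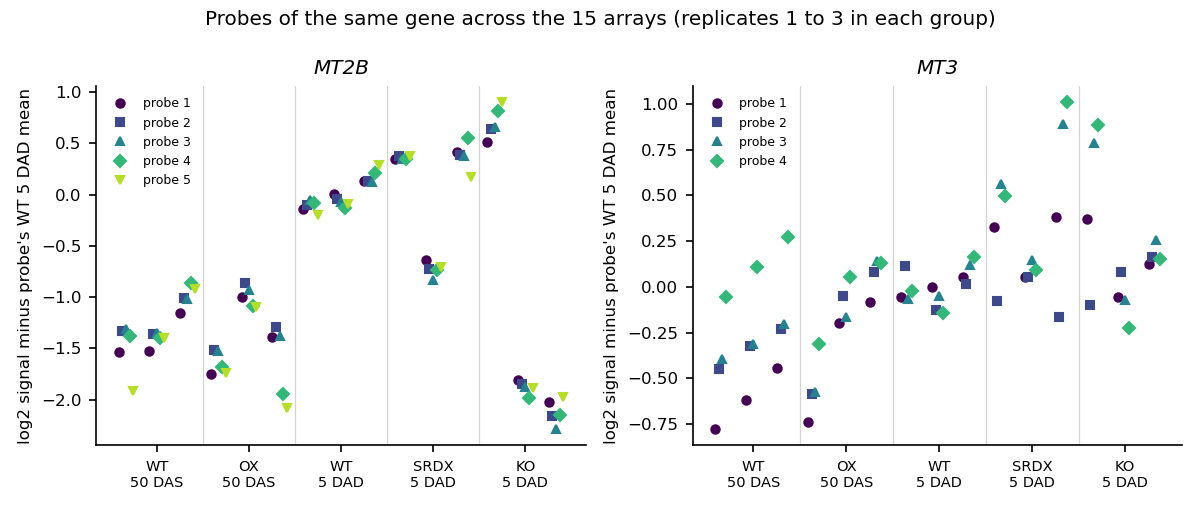
Log2 signal minus the probe's own mean in WT at 5 DAD (vertical axis) for the 5 *MT2B* and 4 *MT3* probes on the 15 arrays, with replicates 1, 2 and 3 from left to right in each group. The *MT2B* probes moved together, whereas *MT3* probe 2 stayed near its WT mean on SRDX arrays where probes 3 and 4 were high.

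Probes of the same gene could be compared for 3 genes. The 5 *MT2B* probes ran together over the 15 arrays, with Pearson's r from 0.960 to 0.999 between them, although their mean WT signals at 5 DAD ran from 6.02 to 10.57. The *MT2A* probes correlated at r = 0.909. The 4 *MT3* probes did not form 1 profile, with r from 0.119 to 0.913 over 15 arrays and from -0.63 to 0.987 over the 9 arrays at 5 DAD. In SRDX, *MT3* probes 3 and 4 differed from WT by 0.53 each, probe 1 by 0.25 and probe 2 by -0.06. Probe 4 was also the only one that did not pass in WT at 5 DAD against WT at 50 DAS (-0.11, limma adjusted p = 0.447). Which transcripts each *MT3* probe reads was not tested. Type 1 genes are close relatives of each other, and cross-hybridization between their probes was not tested, since no probe sequences were used here.

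Between genes, *MT1A* and *MT1C* correlated at r = 0.644 over 15 arrays and 0.900 over the 9 arrays at 5 DAD. Their deviations from the group means correlated at 0.861. OX, with the widest range in both genes (1.56 in *MT1A* and 4.79 in *MT1C*), weighs most in this value. The arrays had the same order in both genes in SRDX. In WT at 5 DAD the array highest in *MT1C* (5.40) was lowest in *MT1A* (10.50). *MT2A* and *MT3* correlated at 0.953, 0.858 and 0.848 in the same measures. The deviations of *MT1A* and *MT2B* gave 0.04, close to no linear relation within groups. All of these points share arrays and normalization, and the correlations are descriptions.

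**Figure D3:**
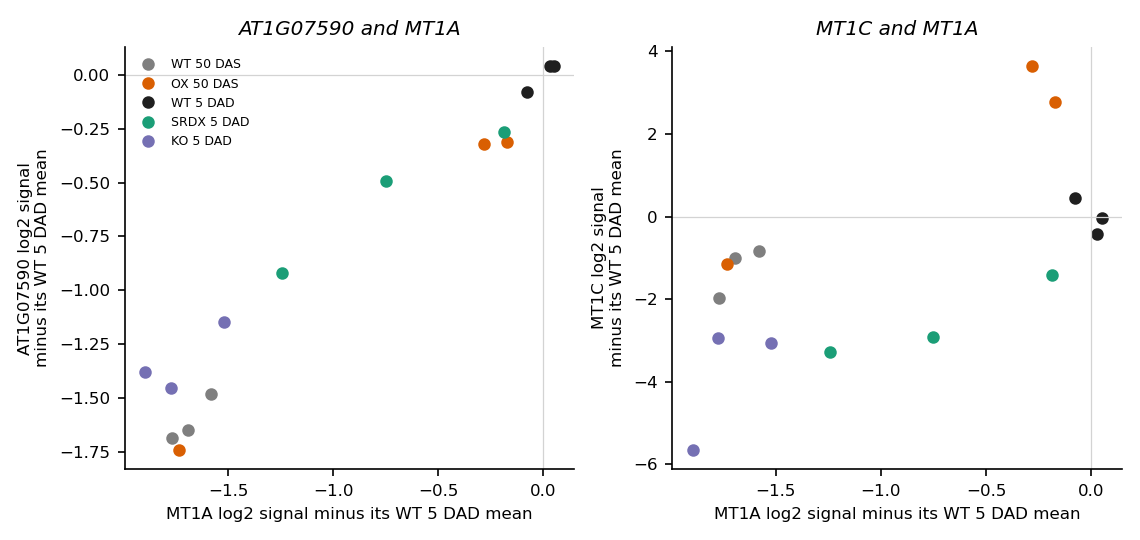
Log2 signal of AT1G07590 (left) and of *MT1C* (right) against that of *MT1A* on the 15 arrays, each minus its own mean in WT at 5 DAD. AT1G07590 lies close to a line with *MT1A* (r = 0.975), while for *MT1C* (r = 0.644) the arrays at 50 DAS lie above those at 5 DAD at similar *MT1A* signals.

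The gene whose profile was most like that of *MT1A*, among 20668 other loci with a measured probe, was AT1G07590 (Pearson's r = 0.975 over 15 arrays, 0.994 over the 9 at 5 DAD). This locus precedes *MT1A* on chromosome 1, and in the RefSeq annotation of TAIR10.1 its span holds all of *MT1A*. Its signal was 11.01, 10.89 and 11.01 in WT at 5 DAD, 9.59, 9.52 and 9.83 in KO and 10.71, 10.48 and 10.06 in SRDX. In OX it was 9.23, 10.65 and 10.66, with replicate 1 low as in *MT1A*, beside 9.33, 9.29 and 9.49 in WT at 50 DAS. Whether the probes of these loci read separate transcripts was not tested, so AT1G07590 and *MT1A* cannot be told apart here. The next most similar loci were AT3G18180 (r = 0.931) and *TGA7* (r = 0.906), a bZIP transcription factor.

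For *MT1C* the most similar profiles were those of AT5G19540 (r = 0.950), AT1G49740 (r = 0.949) and *LBO1* (r = 0.948), an oxidoreductase of strigolactone synthesis. With *MT1C*, its neighbour AT1G07615 gave r = -0.26 over 15 arrays and 0.21 over the 9 at 5 DAD. The next gene, *ATOBGM*, gave 0.30 and 0.29. For *MT2B* they were AT5G57860 (r = 0.975), AT1G22140 (r = 0.970) and AT3G44100 (r = 0.970). For *MT2A* they were AT2G33840 (r = 0.986), AT4G31410 (r = 0.982) and AT2G47200 (r = 0.979), but within the 9 arrays at 5 DAD these fell to between 0.548 and 0.839. For *MT3* they were AT2G21180 (r = 0.983), AT5G39850 (r = 0.978) and AT2G44510 (r = 0.974). *MT4A*, well above background on 5 arrays only, was closest to AT2G20380 (r = 0.955), *BZIP27* (r = 0.948) and AT2G24615 (r = 0.942).

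Other genes of metal handling gave the setting of these values. Of 19 genes of copper homeostasis, 4 passed as higher and 2 as lower in KO, beside 17.4% and 15.8% of all probes. The copper exporter *HMA5* was lower in KO (-1.59, limma adjusted p = 0.0417) and in SRDX (-1.69, limma adjusted p = 0.0489), against the same WT arrays. It was 22.6-fold higher in WT at 5 DAD than at 50 DAS (limma adjusted p = 8.94e-07). The copper/zinc superoxide dismutase *CSD3* was higher in KO (0.83, limma adjusted p = 0.0243) and in SRDX (0.97, limma adjusted p = 0.0246). *COPT3* passed as lower in KO but was not well above background there. In SRDX 4 copper genes passed as higher and 2 as lower, beside 12.3% and 10% of all probes. In WT at 5 DAD against 50 DAS, 6 passed as higher and 12 as lower, beside 46.7% and 40.2% of all probes. Among those lower was the chloroplast copper protein plastocyanin (*PETE2*, -2.84, limma adjusted p = 9.46e-07).

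Of 13 zinc homeostasis genes tested, 4 passed as higher and 2 as lower in KO, 3 and 1 in SRDX, and 7 and 4 in WT at 5 DAD against 50 DAS. The shares over all probes were 17.4% and 15.8% in KO, 12.3% and 10% in SRDX and 46.7% and 40.2% in WT, and they stand beside the iron and glutathione counts too. The zinc transporter *ZIP9* was lower in KO (-1.50, limma adjusted p = 0.0135) and SRDX (-1.86, limma adjusted p = 0.0130). *HMA2*, which pumps zinc out of cells, was higher in KO (1.89, limma adjusted p = 0.0153) and SRDX (1.60, limma adjusted p = 0.0276). The zinc-deficiency regulator *bZIP19* was higher in KO (0.73, limma adjusted p = 0.0200) and SRDX (0.69, limma adjusted p = 0.0325). Of 18 iron homeostasis genes tested, 2 passed as higher and 5 as lower in KO, 1 and 1 in SRDX. The vacuolar exporter *NRAMP3* was lower in both (-1.31 in KO, limma adjusted p = 0.0143, and -1.04 in SRDX, limma adjusted p = 0.0295). *NAS4* passed as lower in KO but was not well above background there. In WT at 5 DAD against 50 DAS, 6 iron genes passed as higher, with the iron store ferritin *FER1* at 15.2-fold (limma adjusted p = 9.65e-07), and 8 as lower.

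Glutathione and phytochelatins are other thiol ligands of metals. Of 8 genes for their synthesis, reduction and transport, 5 passed as lower in KO and 3 in SRDX, and none as higher. The vacuolar transporter *ABCC2* was lower in KO (-0.96, limma adjusted p = 0.0911) and SRDX (-1.05, limma adjusted p = 0.0961), as was glutathione reductase *GR1* (-0.75, limma adjusted p = 0.105, and -0.81, limma adjusted p = 0.111). Of the 5 lower in KO, *PCS2* and *GSH1* act in synthesis, and *PCS2* was above background on only 1 KO array. In WT at 5 DAD against 50 DAS, 4 glutathione genes passed as higher and 3 as lower. In OX 18 copper, 11 zinc, 18 iron and 7 glutathione genes were tested. No gene of the 4 lists passed by limma. At an unadjusted p under 0.05, 11 were higher and 4 lower, beside 6364 of all 27655 probes in either direction. Without OX replicate 1, 11 iron, 4 copper, 4 zinc and 3 glutathione genes passed as higher, and 2, 7, 3 and 1 as lower. In that fit 24.2% of all probes passed as higher and 32.6% as lower. The lists hold 24 iron, 19 copper, 15 zinc and 8 glutathione genes with a probe. The remaining member of the type 4 family, *MT4B*, did not pass in KO (0.69, limma adjusted p = 0.282) or SRDX (0.54, limma adjusted p = 0.451).

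The counts of these lists in KO and SRDX rested on single arrays. Glutathione genes lower in KO were 0 without WT replicate 1, WT replicate 2 or KO replicate 3, and those lower in SRDX were 0 whichever WT array was left out, 0 without SRDX replicate 3 and 5 without SRDX replicate 2. Copper genes higher in KO were 2 whichever WT array was left out and 2 without KO replicate 3, and those lower were 1 without WT replicate 1, WT replicate 2 or KO replicate 3. Copper genes higher in SRDX were 1 without WT replicate 1, WT replicate 2 or SRDX replicate 3 and 8 without SRDX replicate 2, and those lower were 0 without WT replicate 1 or 2 and 4 without SRDX replicate 2. Iron genes lower in KO were 2 without WT replicate 2 or 3, SRDX replicate 1, or KO replicate 2 or 3, and those higher were 0 without WT replicate 2. Iron genes in SRDX were 0 higher without WT replicate 1, WT replicate 2 or SRDX replicate 3, and 3 lower without SRDX replicate 2. Zinc genes higher in KO were 2 without WT replicate 2, and those lower were 1 whichever WT array was left out and 1 without KO replicate 1. Zinc genes higher in SRDX were 5 without SRDX replicate 2, and those lower were 3 without SRDX replicate 1. Of the genes named at 5 DAD, *CSD3*, *ZIP9*, *HMA2*, *bZIP19* and *NRAMP3* passed in KO and in SRDX whichever array was left out. *HMA5* in SRDX did not pass without WT replicate 1 or 2 (highest limma adjusted p = 0.172). *ABCC2* and *GR1* were lost in KO without KO replicate 1, KO replicate 3, WT replicate 1 or WT replicate 2, among others, and in SRDX whichever WT array was left out, among others, with limma adjusted p up to 0.243 and 0.261 in KO and 0.283 and 0.305 in SRDX.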

How the data were processed

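Total RNA had been hybridized to 15 one-color Agilent Arabidopsis arrays. As deposited, each scanner file holds spot intensities that Agilent Feature Extraction (11.5.1.1 per the file headers, 9.1.3.1 per the submitters' processing notes) had background-subtracted. The deposited series table holds natural log values normalized by the authors and was used only as an alternative. Outlier spots (1 to 13 per array) were left out, intensities were divided by the array median, quantile normalized over 15 arrays and taken to log2. Any probe whose spots were all well above background in 1 or more groups of a fit was tested with limma 3.58.1 in R 4.3.3 (6 arrays for OX against WT and for WT against WT, 9 arrays in 1 fit for KO and SRDX), with Benjamini-Hochberg adjustment over all probes and a limit of 0.15. The script was tested on simulated data. The brightest probe stands for a gene; names come from array accessions matched to RefSeq (TAIR10.1), 34348 of 43603 probes. By rule, all members were described, with the 3 loci most correlated with each, and genes of the metal lists came from the up to 4 largest changes past the limit. The arrays of a group are separate samples. A p-value sets a difference between groups against the spread of arrays within the groups of its fit, moderated by limma. That spread is between lines in OX and SRDX, with each array taken as 1 line, and within 1 insertion line in KO. Members and lists were chosen with earlier results of these data known.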

Additional observations from a re-analysis of the deposited data

How the results depend on the processing

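The comparisons were repeated under the processing alternatives that could be fitted to them and without each of their arrays. Slide as a random block was fitted for KO and SRDX only. In OX the count of genes higher was 3 instead of 0 in 1 fit of all 15 arrays, and 0 to 4 when arrays were left out one at a time, with 4 only without OX replicate 1. In WT at 5 DAD against 50 DAS, 1 gene (*MT3*) passed as lower with 75th percentile scaling, its probes 1, 2 and 3 giving -0.33, -0.61 and -0.36, and the cause was not tested. For KO, *MT1A* differed by -1.19 with 75th percentile scaling (*MT2A* by 0.30, *MT3* by 0.42 and *MT3* probe 2 by 0.36, the cause not tested) and by -1.47 with quantile normalization within each experiment. That scaling also moved the calls over all probes in KO from 5757 higher and 5226 lower to 4742 and 7722. In OX, calls over all probes were 21 higher and 3 lower. They were 43 and 6 with 75th percentile scaling, 3 and 0 with normexp, 13 and 3 in the authors' table, 33 and 43 with no filter, 0 and 0 for probes well above background everywhere, 3092 and 4598 in 1 fit of all 15 arrays, and 1 and 0 at a limit of 0.05. Without OX replicate 1, 2 or 3 they were 6940 and 9348, 8 and 0, and 5 and 1. At a limit of 0.05 the calls were 2494 and 2059 in KO and 1503 and 847 in SRDX. With slide as a random block, KO gave 3922 and 3379. Arrays with the same replicate number did not deviate together throughout (at 5 DAD, r over all probes was 0.62 for replicate 2 of SRDX and KO and -0.25 for replicate 1 of WT and SRDX), so the numbers were not taken as pairs. A replicate block gave 0 and 0 calls over all probes in OX and changed no count of metallothionein genes.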
